A study of Mus musculus with 6 samples.

Results

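Expression of 9 interferon-inducible and antiviral genes was followed in mouse embryonic stem cells depleted of Fip1. The genes were Bst2, Ifitm1, Ifitm2, Ifitm3, Irf7, Ifih1, Cxcl10, Gbp2 and Irgm1. They were chosen by symbol, all 9 were measured by 1 probe set each, and they are 9 of the 15267 genes tested. The cells were of the line E14Tg2a.4, were grown on gelatin in M15 medium, were transfected by lipofection and gave RNA on day 4. The 3 groups of 2 arrays were Fip1L1 siRNA2 (titled siFip1-2), Fip1L1 siRNA3 (siFip1-3) and a mock control (Mock) that received the lipid reagent without siRNA. No group received a siRNA against another target, so the loss of Fip1 and the presence of any siRNA cannot be told apart in these comparisons. All groups are 1 cell line, and the labels do not say whether replicates were separate cultures, so the spread behind each p-value is that between these arrays and may be technical.

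Interferons are secreted when cells sense foreign nucleic acid. Type I interferon signals through a receptor with the kinases Jak1 and Tyk2, and the transcription factors it activates bind the interferon-stimulated response element of target promoters. Type II interferon acts largely through the gamma-activated sequence. Pluripotent stem cells are known for a weak interferon response, while they express some antiviral genes, the Ifitm genes among them, without interferon. Double-stranded RNA such as a siRNA can itself be sensed, which is why these genes are of interest in a siRNA experiment.

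Values are log2 probe set values made by the authors with RMA, and a difference of 1 is a 2-fold change. The array medians lay between 6.08 and 6.12. Fip1l1, the gene targeted, was at 9.65 and 9.74 in mock cells, at 8.26 and 7.79 with siFip1-2 and at 8.39 and 7.86 with siFip1-3 (replicates 1 and 2), a fall of 1.62 (SE 0.176, limma adjusted p = 0.00176) for both siRNAs averaged. All 12 embryonic stem cell markers lay above the 95th percentile of 65 chemosensory receptor genes (olfactory, vomeronasal and trace amine receptors, 4.46 in the mean of the mock arrays), with mock means from 9.98 upwards. For both siRNAs averaged, 10.3% of all genes passed in limma, a share that also holds beside the other marker counts below. None of the 12 passed (0 of 12), with Tdgf1 at -0.29 and Fgf4 at -0.24, so little is read from these counts. With the replicate number as a block 2 were higher and 3 lower, where 8.43% and 11.7% of all genes were. Of 10 leukocyte markers 7 did not exceed the chemosensory value of 4.46, the pan-leukocyte gene Ptprc at 3.18 to 3.48 on all arrays. The brightest of the 10 was Laptm5 (mock mean 8.51) and the next Cd3e (5.88), so a linear sum over these markers is mostly Laptm5. Their summed linear level was 533 to 568 on the mock arrays, 725 to 788 with siFip1-2 and 675 to 904 with siFip1-3, and the 1 marker that passed was Laptm5, which rose by 0.63 (SE 0.156, adjusted p = 0.0378, not past the threshold in 4 of the 6 fits without 1 array, 0.0729 to 0.175, nor without the variance trend, 0.0507). None of 12 fibroblast markers passed in limma (0 of 12, also 0 with the block; Postn at 0.12 and Lum at 0.10), and of 8 endothelial markers 1 passed, Vwf, which fell by 0.73 (adjusted p = 0.0298, or 0.0712 to 0.198 in the 3 such fits in which it did not pass). The part of other cell types in the results was not tested, and in bulk RNA fewer cells that express a gene and less RNA per cell cannot be told apart.

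Most of the 9 promoter windows held the letters of the response element that interferon signalling uses. In RefSeq windows of 300 bases (GRCm38.p6, 250 before and 50 after 1 annotated start per gene), 7 of the 9 windows held the core of that element (GAAA, any 2 bases, GAAA) on either strand, against 3.44% of 32851 windows of all genes. The genes were picked as interferon-inducible, so this share describes them and tests nothing. Bst2, Ifitm3 and Irgm1 held 2 cores each, Ifitm2, Ifih1, Cxcl10 and Gbp2 held 1, and no match lay in the windows of Ifitm1 and Irf7. The gamma-activated sequence TTCNNNGAA was found in the windows of Bst2 and Ifitm3, in both overlapping a core, and in 8.3% of all windows. An NF-kB motif (GGGA, any 2 bases, TTCC) was found for Ifitm3, Cxcl10 and Gbp2, and in 1.47% of all windows. Shown here are the windows of the pair that fell after Fip1 depletion (Bst2 and Ifitm3) and of the pair that differed most between replicate numbers (Gbp2 and Irgm1), 5′ to 3′ on the gene's strand with the matches to the core in capitals.
Bst2, chr8:71537423-71537722, minus strand: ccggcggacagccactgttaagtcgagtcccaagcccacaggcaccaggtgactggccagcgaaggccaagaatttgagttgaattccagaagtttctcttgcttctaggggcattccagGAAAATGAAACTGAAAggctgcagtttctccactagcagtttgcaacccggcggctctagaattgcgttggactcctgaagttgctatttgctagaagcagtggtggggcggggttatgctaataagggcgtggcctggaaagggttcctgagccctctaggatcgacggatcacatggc
Ifitm3, chr7:141010695-141010994, minus strand: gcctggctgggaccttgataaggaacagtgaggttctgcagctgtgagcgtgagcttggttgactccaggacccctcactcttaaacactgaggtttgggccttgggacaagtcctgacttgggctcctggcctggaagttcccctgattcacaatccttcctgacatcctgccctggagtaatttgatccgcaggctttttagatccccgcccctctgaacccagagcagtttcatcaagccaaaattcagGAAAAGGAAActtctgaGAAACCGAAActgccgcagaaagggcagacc
Gbp2, chr3:142620413-142620712, plus strand: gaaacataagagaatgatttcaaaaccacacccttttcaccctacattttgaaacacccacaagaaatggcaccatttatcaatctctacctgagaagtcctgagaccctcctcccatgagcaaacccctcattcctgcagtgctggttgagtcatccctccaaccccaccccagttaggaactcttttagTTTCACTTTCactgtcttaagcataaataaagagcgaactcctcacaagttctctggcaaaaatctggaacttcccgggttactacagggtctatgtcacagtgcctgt
Irgm1, chr11:48871371-48871670, minus strand: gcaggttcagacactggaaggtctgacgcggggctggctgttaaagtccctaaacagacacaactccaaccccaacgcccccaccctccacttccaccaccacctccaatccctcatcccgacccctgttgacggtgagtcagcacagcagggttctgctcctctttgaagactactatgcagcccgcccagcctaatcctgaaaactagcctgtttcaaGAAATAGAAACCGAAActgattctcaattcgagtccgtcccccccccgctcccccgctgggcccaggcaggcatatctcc
In Bst2 the 2 cores overlap and begin 130 and 124 bases before the start. In Ifitm3 they begin 2 and 19 bases after it, in Irgm1 30 and 24 bases before it, again overlapping, and in Gbp2 the core is on the opposite strand and begins 59 bases before it. In Cxcl10 the core GAAAGTGAAA begins 213 bases before the start, in Ifitm2 GAAAAGGAAA begins 46 bases before it, and in Ifih1 GAAACAGAAA begins 32 bases after it.

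Of the 9 genes, 2 fell after Fip1 depletion with both siRNAs averaged, and none rose unless the replicate number was in the model as a block. Those that fell were Bst2 and Ifitm3, both of which encode membrane proteins that restrict enveloped viruses. For the mean of both siRNAs against mock, 10.3% of all genes passed (6.19% lower and 4.15% higher), and nothing particular to the 9 genes is read from a count of 2. The median log2 difference was -0.07 for the 9 genes and -0.0015 for all genes. RNA sensing and signalling genes (Ifih1, Irf7), the chemokine Cxcl10 and the GTPases Gbp2 and Irgm1 did not pass. With the block, which pairs samples of 1 replicate number, 2 of the 9 fell (Bst2 and Ifitm3, adjusted p = 0.00192 and 0.000973) and 2 rose (Irgm1 and Cxcl10, adjusted p = 0.0136 and 0.0430). In that fit 11.7% of all genes were lower and 8.43% higher.

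**Figure D1:**
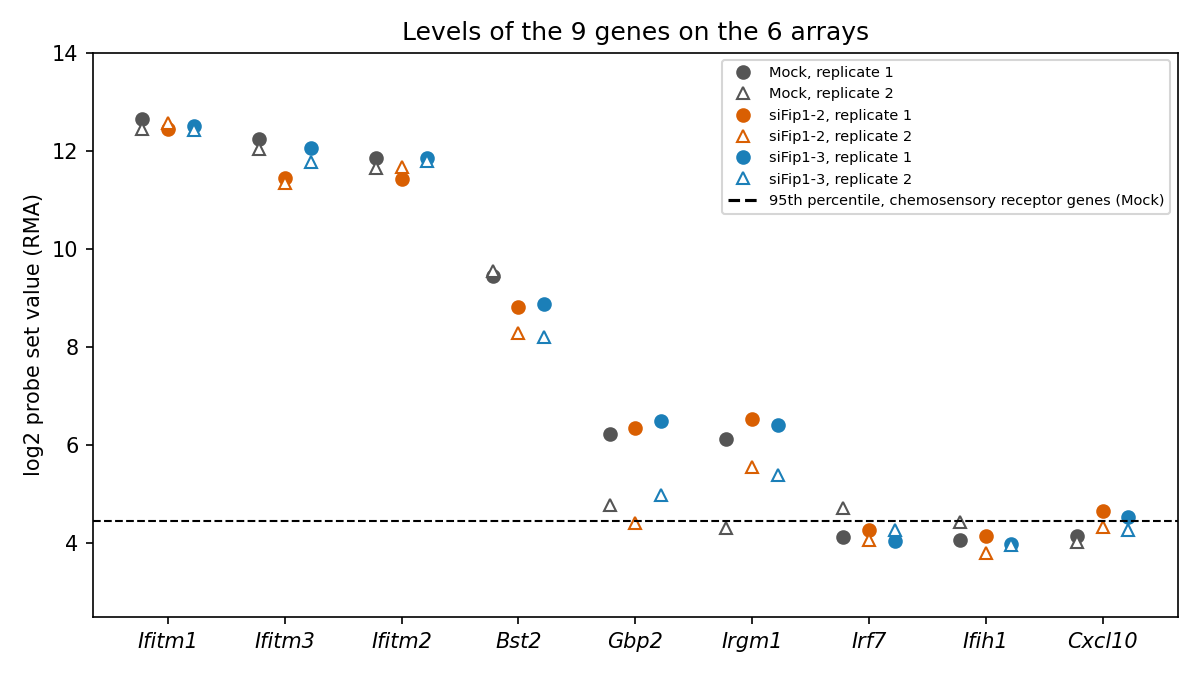
Log2 probe set values (vertical axis) of the 9 genes (horizontal axis) on the 6 arrays, coloured by group, with filled circles for replicate 1 and open triangles for replicate 2; the dashed line is the 95th percentile of 65 chemosensory receptor genes in the mean of the mock arrays, 4.46. The siRNA arrays of Bst2 lie below its mock arrays, and for Gbp2 and Irgm1 the triangles lie below the circles in every group.

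Bst2 encodes tetherin, which holds budding virus particles at the cell surface. Mock arrays 1 and 2 gave 9.46 and 9.56, and the level was 8.83 and 8.29 with siFip1-2, and 8.89 and 8.21 with siFip1-3. All 4 siRNA arrays lay below both mock arrays, and the replicate 2 arrays of both siRNAs lay below those of replicate 1. Such a separation downwards was found for 18.4% of all genes. Averaged over both siRNAs, Bst2 differed from mock by -0.95 (SE 0.205, 95% interval -1.42 to -0.48, limma adjusted p = 0.0234), which left 51.6% of the mock level. Within a replicate number the mean difference was -0.60 in replicate 1 and -1.31 in replicate 2, where that of Fip1l1 was -1.32 and -1.92. The call of Bst2 ended when mock replicate 1 (adjusted p = 0.0865), mock replicate 2 (0.165) or siFip1-2 replicate 2 (0.0671) was left out, with differences of -0.78 to -1.12 over the 6 fits that leave out 1 array.

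Ifitm3 encodes an interferon-induced transmembrane protein that blocks the entry of viruses at endosomes, and in the mouse it also marks early germ cells. Mock arrays gave 12.25 and 12.05, and the level was 11.46 and 11.35 with siFip1-2, and 12.06 and 11.79 with siFip1-3. The siFip1-2 arrays were the lowest, and replicate 1 of siFip1-3 overlapped the mock arrays. Against mock, Ifitm3 passed with siFip1-2 (limma adjusted p = 0.00951) but not with siFip1-3 (adjusted p = 0.331). Averaged over both siRNAs, Ifitm3 differed from mock by -0.49 (SE 0.100, 95% interval -0.71 to -0.26, limma adjusted p = 0.0199), or 71.4% of the mock level. It was -0.49 in replicate 1 and -0.48 in replicate 2. The call ended when mock replicate 1 (adjusted p = 0.128), mock replicate 2 (0.0713) or siFip1-2 replicate 2 (0.0678) was left out.

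Its close relatives Ifitm1 and Ifitm2 did not pass. The 3 genes lie together on chromosome 7 and have similar sequences, so a probe set may read more than 1 of them. Ifitm1, a relative also expressed in early germ cells, was at 12.65 and 12.45 in mock cells, 12.44 and 12.58 with siFip1-2, and 12.51 and 12.43 with siFip1-3. Its groups overlapped, and the difference of -0.06 had a 95% interval of -0.24 to 0.13 (adjusted p = 0.736). Ifitm2, another endosomal member, was at 11.85 and 11.66 with mock, 11.43 and 11.67 with siFip1-2, and 11.85 and 11.79 with siFip1-3. Its groups overlapped too, and the difference of -0.07 had a 95% interval of -0.29 to 0.15 (adjusted p = 0.730). The differences of Ifitm1 and Ifitm2 turned to 0.04 and 0.03 without mock replicate 1. Whether Ifitm3 differed from its relatives in its change was not tested. The relatives Ifitm5, Ifitm6 and Trarg1 also did not pass (3 genes measured for 6 fixed symbols, of which Tusc5 is an older symbol of Trarg1, median -0.11). Of these, Trarg1 had a difference of -0.22 and Ifitm5 of 0.19.

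**Figure D2:**
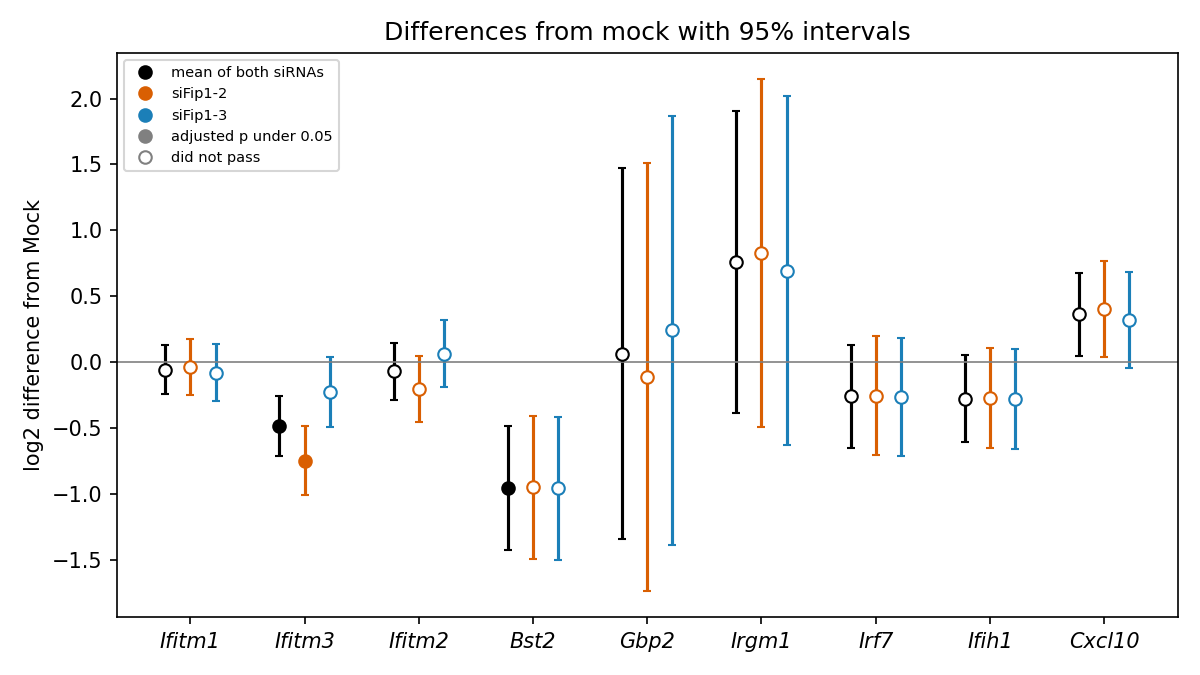
Log2 difference from mock (vertical axis) of each of the 9 genes with its 95% interval, for the mean of both siRNAs (black), siFip1-2 (orange) and siFip1-3 (blue); filled points passed an adjusted p of 0.05. The fit has no replicate block, so the difference between replicate numbers is part of the intervals. The mean of both siRNAs passed for Bst2 and Ifitm3, and the intervals of Gbp2 and Irgm1 span over 2 log2 units.

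The sensor and the transcription factor among the 9 genes lay at the level of dim probe sets. Ifih1 encodes MDA5, a cytoplasmic sensor of long double-stranded RNA. It was at 4.07 and 4.44 in mock cells, 4.15 and 3.80 with siFip1-2, and 3.99 and 3.96 with siFip1-3. Irf7, the factor that amplifies type I interferon transcription, was at 4.14 and 4.72 with mock, 4.28 and 4.07 with siFip1-2, and 4.06 and 4.27 with siFip1-3. In both genes the highest array was mock replicate 2 and the other arrays overlapped. The differences were -0.28 for Ifih1 (95% interval -0.61 to 0.05, adjusted p = 0.291) and -0.26 for Irf7 (95% interval -0.65 to 0.13, adjusted p = 0.409). In replicate 1 alone the mean siRNA difference was 0.0049 for Ifih1 and 0.03 for Irf7, and without mock replicate 2 that of Irf7 was 0.03 over all arrays left. Cxcl10, Ifih1 and Irf7 were the 3 genes of the 9 whose mock means lay below the chemosensory reference of 4.46, so their expression in mock cells is uncertain, and RMA compresses changes at such levels.

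Cxcl10 encodes a chemokine that attracts activated T cells and is induced by both interferon types. Mock arrays gave 4.14 and 4.04, and the level was 4.67 and 4.33 with siFip1-2, and 4.54 and 4.27 with siFip1-3. All 4 siRNA arrays lay above both mock arrays, a separation upwards found for 15.2% of all genes. The difference was 0.36 (SE 0.138, 95% interval 0.05 to 0.68) and did not pass (adjusted p = 0.146). With the replicate number as a block it passed (adjusted p = 0.0430), in a fit in which 4 of the 9 genes and 20.2% of all genes passed.

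Irgm1 and Gbp2 encode GTPases of cell-autonomous immunity that act on vacuoles holding intracellular pathogens, and both varied widely between replicate numbers. Irgm1 was at 6.13 in mock, 6.54 with siFip1-2 and 6.42 with siFip1-3 on the replicate 1 arrays. It was at 4.31, 5.55 and 5.40 in the same order on the replicate 2 arrays. Within each replicate number both siRNA arrays lay above mock, by 0.41 and 0.30 in replicate 1 and by 1.24 and 1.09 in replicate 2. Averaged over both siRNAs, Irgm1 differed from mock by 0.76 (SE 0.501, 95% interval -0.38 to 1.91) and did not pass (adjusted p = 0.412). With the replicate number as a block the SE was 0.172 and it passed (adjusted p = 0.0136), as it did for siFip1-2 (0.0208) and siFip1-3 (0.0477). In the fit without the block the difference turned to -0.15 without mock replicate 2. That fit sets mock replicate 1 alone against siRNA arrays of both replicate numbers, so the difference between replicate numbers enters it.

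Gbp2 was at 6.22 in mock, 6.36 with siFip1-2 and 6.50 with siFip1-3 on the replicate 1 arrays, and at 4.78, 4.41 and 4.98 on the replicate 2 arrays. No siRNA array stood apart from mock of its own replicate by more than 0.36. Averaged over both siRNAs, Gbp2 differed from mock by 0.06 (SE 0.615, 95% interval -1.34 to 1.47, adjusted p = 0.968), and with the block its adjusted p was 0.799.

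The replicate number itself was therefore compared, as replicate 2 minus replicate 1 within groups. The sample titles of a replicate number share a suffix across the 3 groups, and the labels do not say what it marks. From replicate 1 to replicate 2 Gbp2 differed by -1.64 on the log2 scale (SE 0.125, 3.11-fold lower, limma adjusted p = 0.000459) and Irgm1 by -1.27 (SE 0.162, 2.42-fold lower, adjusted p = 0.00646). In both genes all 3 replicate 2 arrays lay below all 3 replicate 1 arrays, which 5.81% of all genes did, and 2.5% of all genes passed this comparison (1.45% lower). By standard deviation over the 6 arrays Gbp2 was 31st and Irgm1 53rd of the 15267 genes. Both kept their calls in each of the 6 fits that left out 1 array, with an adjusted p of at most 0.00339 for Gbp2 and 0.0164 for Irgm1. None of the other 7 genes passed with all arrays, and Bst2 passed when mock replicate 1 (adjusted p = 0.0255) or 2 (0.0258) was left out, with -0.61 in both fits. The other 7 differences ran from -0.37 (Bst2) to 0.20 (Irf7). Of the 12 stem cell, 10 leukocyte, 12 fibroblast and 8 endothelial markers 2 passed the same comparison, the stem cell marker Lin28a (-0.62, adjusted p = 0.0186) and the fibroblast marker Acta2 (-0.60, adjusted p = 0.0317), and their part in the differences of Gbp2 and Irgm1 was not tested.

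**Figure D3:**
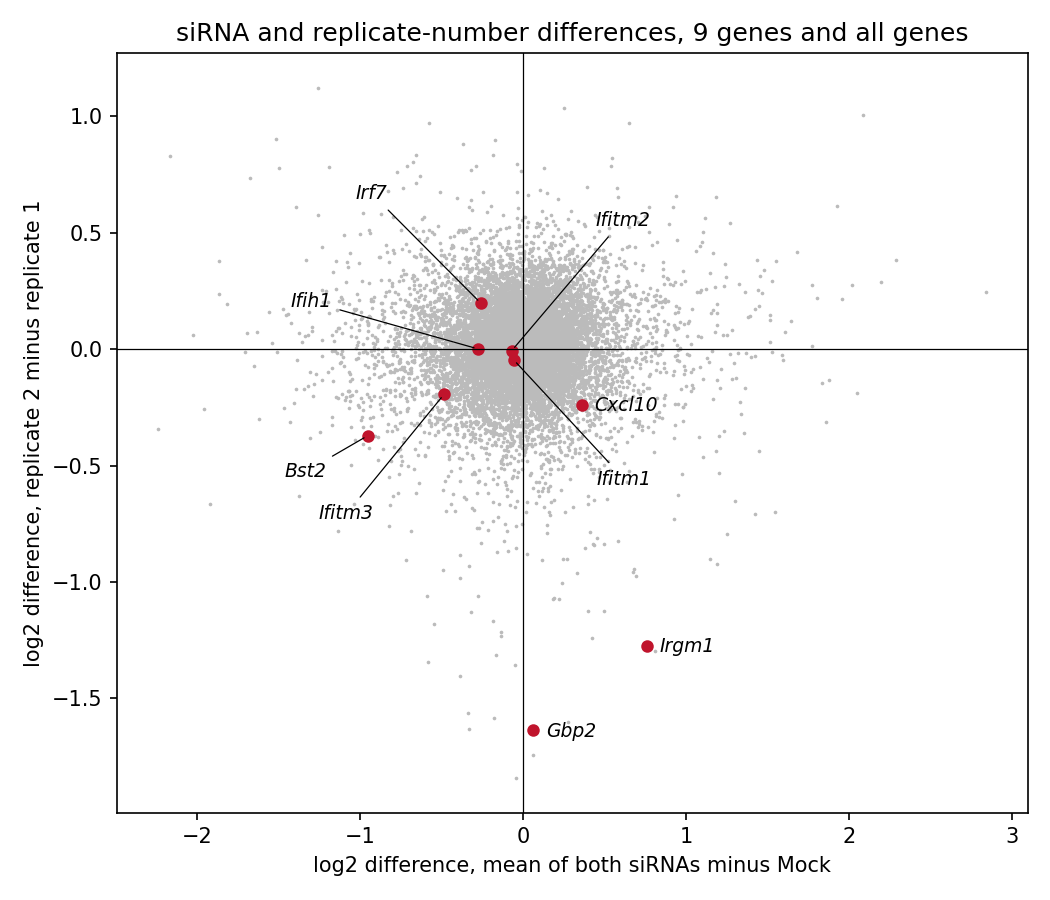
Log2 difference between the mean of both siRNAs and mock (horizontal axis) against the log2 difference between replicate 2 and replicate 1 within groups (vertical axis); grey points are all 15267 genes and red points the 9 genes. Gbp2 (0.06 and -1.64) and Irgm1 (0.76 and -1.27) lie far down, and Bst2 (-0.95 and -0.37) lies to the left.

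The genes whose values ran most alike are given for the 4 genes whose windows are shown. They were found over the 6 arrays among 3122 genes with a standard deviation of at least 0.25, as a description in which the arrays are few. For Gbp2 they were Car2 (Pearson r = 0.995), Gbp2b (0.990) and Tmem47 (0.990). Gbp2b, another guanylate-binding protein gene next to Gbp2 on chromosome 3, was at 6.26, 6.30 and 6.27 on the replicate 1 arrays of mock, siFip1-2 and siFip1-3, and at 4.51, 4.24 and 4.54 on those of replicate 2. Its log2 difference between replicate 2 and replicate 1 was -1.84, the most negative of all genes. Its sequence is similar to that of Gbp2, so their probe sets may not be independent. For Irgm1 the likest genes were Nrk (0.981), Wnt8a (0.979) and Spin2c (0.978). For Bst2 they were Mri1 (0.991), Iws1 (0.990) and Gtf3c6 (0.990), and for Ifitm3 they were Wwox (0.994), Il17d (0.984) and Rbck1 (0.977).

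Each siRNA was also set against the same mock arrays, so these comparisons share them. With siFip1-2, Ifitm3 fell by 0.75 (SE 0.116, adjusted p = 0.00951) and was the only 1 of the 9 to pass, where 6.92% of all genes did (4.01% lower). With the block 3 of the 9 passed, Ifitm3, Bst2 and Irgm1 (17.2% of all genes). Without the block the call of Ifitm3 ended without siFip1-2 replicate 2 (adjusted p = 0.0941). With siFip1-3 none passed in limma (0 of 9, where 5.74% of all genes did). At an unadjusted p under 0.05 there was 1, Bst2 (20.6% of all genes), and with the block there were 2, Bst2 and Irgm1 (14.1% of all genes). The difference of Ifitm3 there was -0.22 (SE 0.116, adjusted p = 0.331). Bst2 lay just outside the threshold with either siRNA, with -0.95 for siFip1-2 (adjusted p = 0.0504) and -0.96 for siFip1-3 (0.0543). With the block both passed (0.00494 and 0.00571). Bst2 also passed without probe sets under the 25th percentile of level (0.0452 and 0.0487), for siFip1-2 without siFip1-3 replicate 1 or 2 (0.0133 and 0.0132), and for siFip1-3 without siFip1-3 replicate 1 (0.0177).

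Between the siRNAs none of the 9 genes passed, and neither did any other gene in limma (0 of 15267, or 0%, also 0 with the block). An unadjusted p under 0.05 was found for 4.22% of all genes, Ifitm3 and Ifitm2 among them. The level of Ifitm3 with siFip1-2 minus that with siFip1-3 was -0.52 (SE 0.116, 95% interval -0.79 to -0.26, adjusted p = 0.984), and it was 12th of all genes by unadjusted p (0.00173). Ifitm2 had a difference of -0.27 (95% interval -0.52 to -0.02, adjusted p = 0.984). For Bst2 the difference was 0.01 with a 95% interval of -0.53 to 0.55. For Gbp2 and Irgm1 the intervals ran from -1.98 to 1.27 and from -1.19 to 1.46.

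The wider interferon pathway was described with 9 further lists, of which 121 genes were measured. The lists held 163 symbols, with an older and a newer symbol entered for some genes. After Fip1 depletion 3 of the 121 rose, 4 fell and 114 did not pass, against 10.3% of all genes that passed, and their median difference was 0.0069 (all genes -0.0015). With the block 8 were higher and 10 lower, in a fit in which 8.43% of all genes were higher and 11.7% lower. These shares also hold beside the block counts of the single lists. Beside their counts without the block stand 6.19% of all genes lower and 4.15% higher. The 5 interferon genes measured (Ifnb1, Ifna4, Ifna5, Ifnab and Ifng) did not pass. Their mock means ran from 3.23 to 4.46, and none of the 5 exceeded the chemosensory reference, the 95th percentile of 4.46 (median 3.49). Their differences ran from 0.02 to 0.11. Ifnb1, the first type I interferon made by most cells, had mock values of 4.34 and 4.56 and siRNA values of 4.40 to 4.75, with a difference of 0.09 (adjusted p = 0.716).

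**Figure D4:**
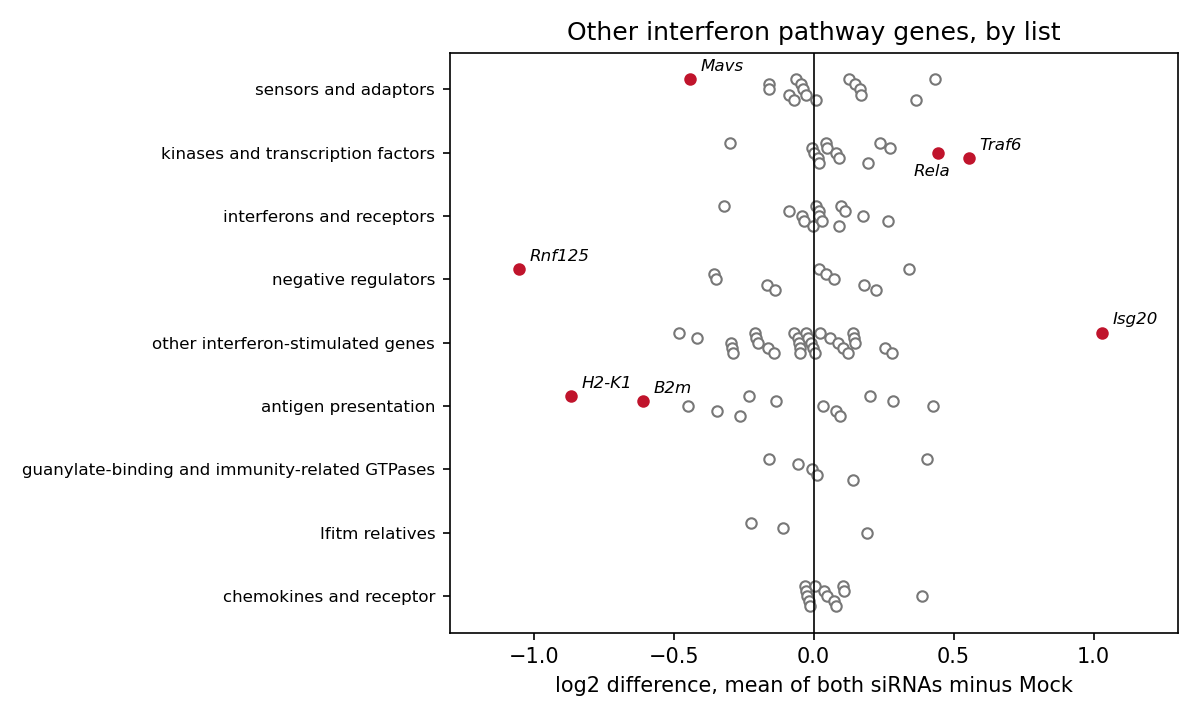
Log2 difference between the mean of both siRNAs and mock (horizontal axis) of each measured gene of the 9 pathway lists (vertical axis, points spread for legibility); filled red points, with names, passed an adjusted p of 0.05. The fit has no replicate block. Of 121 genes 3 lie to the right and 4 to the left as filled points, from Rnf125 at -1.05 to Isg20 at 1.03.

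Among ligands and receptors 0 of 14 genes passed in limma (1 with the block), and the list's median was 0.02. Tyk2, a kinase bound to the type I receptor, had a difference of -0.32 (adjusted p = 0.103, or 0.0436 with the block), and Il10rb, a subunit of the type III receptor, had 0.27. In the list of sensors and adaptors Mavs, the mitochondrial adaptor of the RNA sensors, fell by 0.44 (SE 0.110, adjusted p = 0.0397) and 15 of 16 did not pass (list median -0.03). Of the 16 genes 7 did not exceed the chemosensory reference. With the block 1 more passed, Cgas, a sensor of cytoplasmic DNA, with a difference of 0.44 (adjusted p = 0.0199, or 0.0958 without the block). The level of Mavs was 7.93 and 7.82 with mock and 7.30 to 7.50 on the siRNA arrays. Among kinases and transcription factors 2 of 14 rose, where 4.15% of all genes did, with a list median of 0.06. Traf6, a ubiquitin ligase of Toll-like receptor signalling, rose by 0.55 (SE 0.119, adjusted p = 0.0232), and Rela, a subunit of NF-kB, by 0.44 (SE 0.109, adjusted p = 0.0373). Traf6 was at 5.12 and 5.05 with mock and at 5.57 to 5.70 on the siRNA arrays, and Rela at 8.08 and 7.87 with mock and at 8.35 to 8.47. In Mavs, Traf6 and Rela the siRNA arrays did not overlap the mock arrays, as for 18.4% of all genes downwards (Mavs) and 15.2% upwards (Traf6 and Rela). The calls of Mavs, Traf6 and Rela ended without any 1 of the 6 arrays (adjusted p 0.0511 to 0.241), and that of Mavs also after repeated quantile normalization (0.0508).

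In the list of negative regulators Rnf125, a ubiquitin ligase that marks RNA sensors for degradation in human cells, fell by 1.05 (SE 0.128, 2.07-fold, adjusted p = 0.00263) and 10 of 11 did not pass (list median 0.02). With the block 1 of the 11 was higher (Pias1) and 3 were lower (Rnf125, Socs3 and Otud5), where 8.43% and 11.7% of all genes were. Rnf125 was at 9.57 and 9.45 with mock, 8.60 and 8.21 with siFip1-2, and 8.46 and 8.58 with siFip1-3. Among 31 other interferon-stimulated genes 1 rose, Isg20, an exonuclease that degrades RNA, by 1.03 (SE 0.120, 2.04-fold, adjusted p = 0.00232). Isg20 was at 5.01 and 5.13 with mock, 6.29 and 6.20 with siFip1-2, and 5.94 and 5.98 with siFip1-3. In both genes the siRNA and mock arrays did not overlap, as for 18.4% of all genes downwards (Rnf125) and 15.2% upwards (Isg20). Both passed with each siRNA alone and in every fit that left out 1 array (adjusted p at most 0.0319 for Rnf125 and 0.0270 for Isg20). The median of the interferon-stimulated list was -0.03, and 11 of its 31 genes lay below the chemosensory reference. With the block 2 of the 31 were higher and 2 lower, where 8.43% and 11.7% of all genes were.

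In the antigen presentation list 2 of 13 fell and 0 rose, where 6.19% and 4.15% of all genes did, and the median was -0.13. H2-K1, a class I heavy chain, fell by 0.87 (SE 0.177, adjusted p = 0.0193), and B2m, the light chain that class I molecules share, fell by 0.61 (SE 0.148, adjusted p = 0.0362). H2-K1 was at 8.61 and 8.74 with mock and at 7.43 to 8.15 on the siRNA arrays, and B2m at 9.07 and 8.90 with mock and at 8.13 to 8.75. For neither did the siRNA arrays overlap the mock arrays, a separation downwards found for 18.4% of all genes. The probe set of H2-K1 may read other class I genes. The calls of H2-K1 and B2m ended without mock replicate 1 (0.0703 and 0.179), mock replicate 2 (0.153 and 0.137) or siFip1-2 replicate 2 (0.0511 and 0.110), and that of B2m also without siFip1-2 replicate 1 (0.0632) or siFip1-3 replicate 2 (0.0528). With the block 1 gene of the list was higher and 3 were lower, where 8.43% and 11.7% of all genes were.

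Among the other immunity-related and guanylate-binding GTPases 0 of 6 measured genes passed in limma (0 with the block), with a median of 0.0022 and Gbp3 at 0.40 (adjusted p = 0.320) and Gbp8 at 0.14. Of these 6 genes 5 did not exceed the chemosensory reference, so their expression in mock cells is uncertain. Among the other chemokines and the receptor of Cxcl10, 0 of 13 passed in limma (1 with the block), and the median was 0.04. Of these 13 genes 7 did not exceed the reference. Ccl20, which attracts cells through Ccr6, had a difference of 0.39 (adjusted p = 0.103, or 0.0413 with the block), and Ccl7 had 0.11.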

How the data were processed

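The authors deposited RMA values on a log2 scale, 1 per probe set and array, per the submitters' processing notes. For RMA no version or settings and no probe set definition is given in the sources used here. Its background subtraction, normalization between arrays and probe summary compress changes of dim probe sets. Of 16556 probe sets the platform annotation names 1 gene for 15270 and none for 1286, all 15270 gene numbers were found in a GRCm38.p6 gene table, and the brighter probe set was kept for 3 genes, which left 15267. The files' values carry no detection call here, and 2 arrays per group limit the precision.

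The 6 arrays entered 1 limma model (limma 3.58.1, R 4.3.3) with a mean per group, 3 residual degrees of freedom and a variance trend. P-values are two-sided, the Benjamini-Hochberg adjustment covers 15267 genes, and the threshold was 0.05. Same-numbered samples share a title suffix, and their deviations from the group means correlated over genes at 0.383, 0.281 and 0.443, so the replicate numbers were taken to pair the samples. A second model has the replicate number as a block, which also gave the replicate comparison. Alternatives were other scalings, a filter on dim probe sets, no variance trend, all probe sets and leaving out each array.

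The 9 genes and the lists were chosen with earlier results of these data known. In each list up to 4 genes that passed for both siRNAs averaged are named, or the 2 with the smallest p where none passed; the interferon genes, Ifitm6, Ptprc, genes named for a call with the block and markers named for the replicate comparison fall outside this rule. The model was tried on simulated data for the mean of both siRNAs minus mock, with 200 of 15267 genes changed. It recovered 69.5% of 1.5-fold changes with 6 false calls, and 98.5% of 2-fold changes with 11. No such result is given for the other comparisons. Figures used matplotlib 3.10.9 in Python 3.11.15.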

Additional observations from a re-analysis of the deposited data

How the results depend on the processing

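The counts of genes changed and of the 9 genes that passed kept within 1.5 times of their value after median centring, repeated quantile normalization and with all probe sets in the fit. With the replicate block 3080 genes passed for the mean of both siRNAs, 2624 for siFip1-2 and 2156 for siFip1-3, and of the 9 genes 4, 3 and 2. Beside the calls given above, the block changed among the list genes chosen by the naming rule only those of the stem cell markers Fgf4 and Tdgf1. Without the variance trend 227 genes passed for replicate 2 minus replicate 1. Without dim probe sets 2 of the members left passed for siFip1-2 and 1 for siFip1-3; this filter left 7 of the 9, without Ifih1 and Irf7. Leaving out 1 array gave 305 to 1368 genes for the mean of both siRNAs, 66 to 1094 for siFip1-2, 93 to 573 for siFip1-3 and 193 to 317 for replicate 2 minus replicate 1, and 0 to 2, 0 to 2, 0 to 1 and 2 to 3 of the 9 genes. The cause of these shifts was not tested, and with 1 array less the fits have fewer degrees of freedom.

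Directions turned only among differences that did not pass with all arrays and no block. For replicate 2 minus replicate 1, Ifih1 was at -0.0061 after median centring and -0.043 after quantile normalization, and Ifitm2 at 0.016 after quantile normalization. For siFip1-2 minus siFip1-3, quantile normalization gave -0.062 for Ifih1 and -0.052 for Irf7. Other turns came from leaving out 1 array. Without the block such a fit is unbalanced over the replicate numbers, so the difference between replicate numbers enters the siRNA ranges of Gbp2 and Irgm1. The ranges for siFip1-2 minus siFip1-3 were -0.33 to 0.35 for Bst2, -0.081 to 0.26 for Cxcl10, -0.36 to 0.17 for Fip1l1, -1.33 to 0.62 for Gbp2, -0.17 to 0.18 for Ifih1, -0.026 to 0.11 for Ifitm1, -0.10 to 0.12 for Irf7, -0.38 to 0.65 for Irgm1. The ranges for the mean of both siRNAs minus mock were -0.087 to 0.31 for Ccl7, -0.66 to 0.79 for Gbp2, -0.16 to 0.042 for Ifitm1, -0.17 to 0.030 for Ifitm2, -0.55 to 0.032 for Irf7, -0.15 to 1.67 for Irgm1. The ranges for siFip1-2 minus mock were -1.08 to 0.86 for Gbp2, -0.14 to 0.064 for Ifitm1, -0.55 to 0.038 for Irf7, -0.079 to 1.74 for Irgm1. The ranges for siFip1-3 minus mock were -0.52 to 1.00 for Gbp2, -0.18 to 0.020 for Ifitm1, -0.033 to 0.16 for Ifitm2, -0.56 to 0.026 for Irf7, -0.21 to 1.60 for Irgm1. The ranges for replicate 2 minus replicate 1 were -0.19 to 0.18 for Ifih1, -0.14 to 0.032 for Ifitm1, -0.13 to 0.090 for Ifitm2.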
